A study of Mus musculus with 10 samples.

Results

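This account covers 5 genes for ligands of the tumour necrosis factor (TNF) family: Fasl, Tnfsf10, Tnf, Lta and Ltb. All probe sets that the platform's annotation assigns to 1 of these symbols were taken, which gave 8 of the 45101 probe sets on the array: 2 for Fasl, 3 for Tnfsf10 and 1 each for Tnf, Lta and Ltb. RNA was measured on Affymetrix MOE430_2 arrays in C57Bl/6 mice, wild type per the labels of the NK samples. The IL-15 NK group held 3 arrays of natural killer (NK) cells sorted from spleen for NK1.1 and against CD3, and then kept for 24 h with 100 ng/mL recombinant mouse IL-15. The resting NK group held 3 arrays of NK cells sorted in the same way and lysed at once. The splenocyte group held 4 arrays of unsorted resting spleen cells, which the series' design text describes as 2 biological samples with 2 chips each. The labels give neither the age nor the number of the mice. No NK cells cultured without IL-15 were analysed here, so the effects of IL-15 and of 24 h in culture cannot be told apart. RNA of all NK samples was amplified in 2 cycles and that of splenocytes in 1, so cell population and amplification cannot be told apart in comparisons with splenocytes.

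TNF family ligands are made as trimers anchored in the cell membrane, and several are also cut free or secreted. Fas ligand and TRAIL, the products of Fasl and Tnfsf10, bind death receptors on target cells and start apoptosis through FADD and caspase 8, which gives NK cells a killing route beside perforin and granzymes. TNF acts on its receptors to drive inflammatory signalling or, in some settings, cell death. Lymphotoxin alpha, the product of Lta, is secreted as a trimer that uses TNF receptors. With lymphotoxin beta, the product of Ltb, it forms a membrane complex that signals through the lymphotoxin beta receptor, which shapes lymph nodes and spleen.

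Each value is the authors' linear signal for a probe set. A floor of 179.8 signal units, the median over arrays of each array's 40th percentile, marks the level below which signals were not ordered, and lower signals were set to it before log2 was taken. Each gene was tested at its brightest probe set by mean log2 signal, with limma over all genes whose signal exceeded the floor on 3 or more of the arrays compared, and a call is an adjusted p under 0.05 (Benjamini-Hochberg). A fold is a ratio of geometric means, and it is given as a lower bound where the dimmer group had an array at the floor. The number of arrays limits the precision. For splenocytes the n given counts chips, which the fit averaged in pairs to 2 values. Of all signals, 51.1% to 56.5% lay above the floor on IL-15 NK arrays, 57.8% to 61.7% on resting NK arrays and 61.2% to 62.4% on splenocyte arrays. All 12 NK markers fixed for the check of the labels were above the floor on every array and higher in each NK group than in splenocytes. Resting NK replicates 1 and 2 carried more B-cell marker signal than the third: the median of the 11 B-cell markers, as a share of the mean over splenocyte chips, was 11.9%, 8.3% and 0.509% on resting NK replicates 1, 2 and 3, against 0.254% to 0.848% on IL-15 NK arrays. Results on Ltb are therefore also given for resting NK replicate 3 alone. That array was not the lowest for other cell types. Its macrophage and monocyte markers summed to 29140.8, against 7495 and 21240.1 on resting NK replicates 1 and 2. The signal of the 3-prime end of the Gapdh control over its 5-prime end, a sign of RNA and labelling quality, was 2.9 to 3.81 on IL-15 NK arrays, 5.88 to 9.54 on resting NK arrays and 1 to 1.39 on splenocyte arrays. For the b-Actin control it was 1.28 to 1.49 on IL-15 NK arrays, 2.27 to 6.51 on resting NK arrays and 1.34 to 1.59 on splenocyte arrays. Its part in the differences below was not tested. Quantile normalization moved the median log2 difference of all tested genes by 0.09 for IL-15 NK against resting NK, by 0.11 for resting NK against splenocytes and by 0.21 for IL-15 NK against splenocytes. No member changed direction under it.

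**Figure D1:**
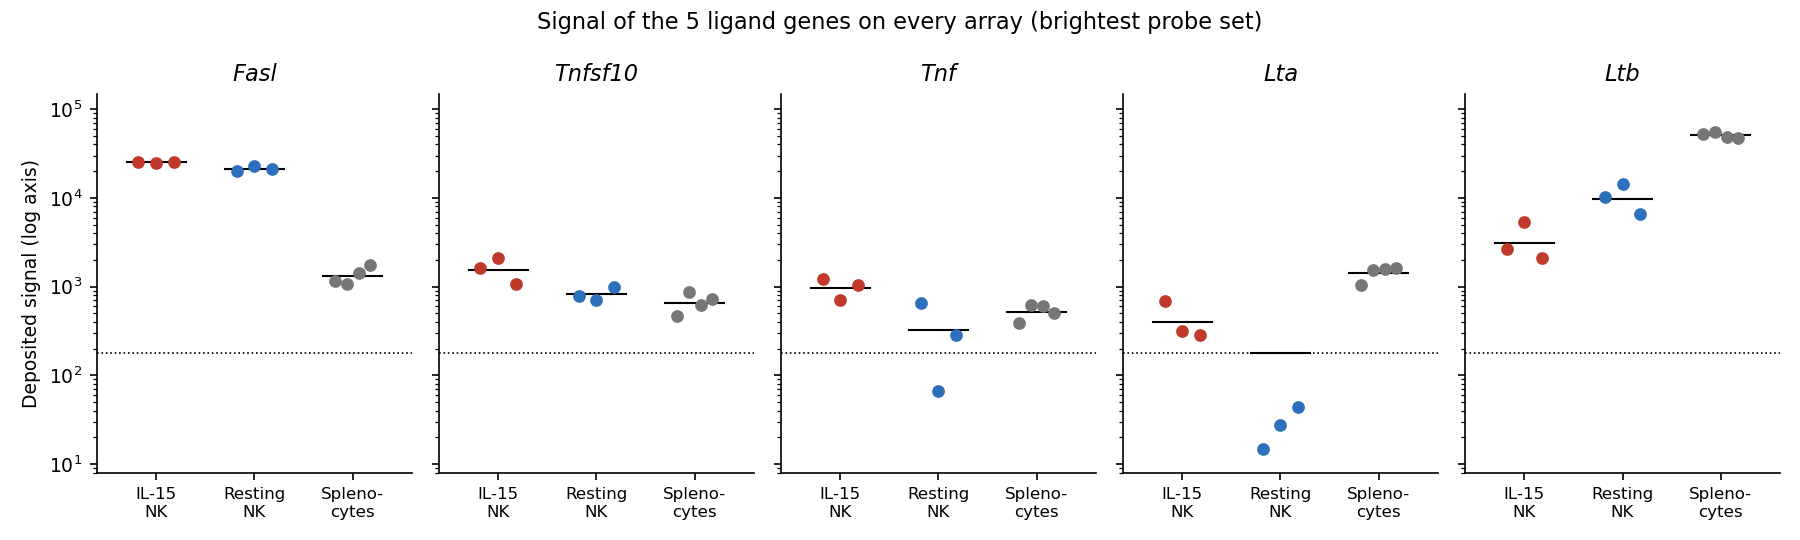
Deposited signal (log axis) of the brightest probe set of each of the 5 genes on every array. Points are arrays, bars are geometric means after flooring and the dotted line is the floor of 179.8. Fasl is high in both NK groups, Lta lies under the floor on all 3 resting NK arrays, and Ltb is lowest in IL-15 NK cells and highest in splenocytes, with no overlap.

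Fasl, the gene of Fas ligand, was higher in both NK groups than in splenocytes. Its signals at probe set 1449235_at were 25645.2, 24802.3 and 25106.1 in IL-15 NK cells, and 19871.1, 22898.4 and 21065.8 in resting NK cells. The 4 splenocyte chips read 1164.3, 1060.3, 1415.2 and 1734.2. Every NK array was above every splenocyte chip, and every IL-15 NK array was above every resting NK array by a small margin. Resting NK cells were 16.1-fold above splenocytes (log2 difference 4.01 ± 0.17 SE, n = 3 and 4 arrays, limma adjusted p = 2.3e-06). The excess of IL-15 NK cells over them was 19.1-fold (log2 difference 4.25 ± 0.17 SE, n = 3 and 4 arrays, limma adjusted p = 1.9e-06). Of all genes tested, 17.1% were called higher in resting NK cells than in splenocytes and 20.8% in IL-15 NK cells than in splenocytes, and 0.247% and 0.128% had a positive difference at least as large as that of Fasl. These 2 comparisons share the splenocyte chips. In bulk samples such as splenocytes, fewer cells of a type and less RNA per cell cannot be told apart.

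Between the NK groups the difference of Fasl did not pass. The mean log2 signal was 14.62 ± 0.02 in IL-15 NK cells and 14.37 ± 0.10 in resting NK cells (SD, n = 3 each), a difference of 0.25 ± 0.16 SE (limma adjusted p = 0.28). Of the genes tested in this comparison, 14.2% were called higher, 12.1% were called lower, and 31.1% had a positive difference at least as large. The other probe set, 1418803_a_at, read 3469.2, 4706.4 and 3542.5 in IL-15 NK cells, 2927.8, 2571.5 and 2922.4 in resting NK cells and 708.1 to 1129.3 in splenocytes. It gave the same order of groups and the same calls over all probe sets, but smaller differences from splenocytes: 4.59-fold for IL-15 NK cells (limma adjusted p = 8.6e-05) and 3.33-fold for resting NK cells (limma adjusted p = 0.00033). Of all probe sets tested, 17.1% and 15% were called higher in these comparisons, and 12.2% in IL-15 NK over resting NK cells. For IL-15 NK over resting NK cells it gave 0.46 on the log2 scale (limma adjusted p = 0.13). Both probe sets are annotated to the same reference transcript, and why their sizes differ was not tested.

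Tnfsf10, the gene of TRAIL, was also highest in IL-15 NK cells, but with a wider spread between arrays. Its brightest probe set, 1459913_at, read 1642.3, 2118.8 and 1062.9 in IL-15 NK cells, and 790.5, 702.2 and 979.6 in resting NK cells. The splenocyte chips read 463.7, 860.5, 627.5 and 726.8. All IL-15 NK arrays lay above all others, although replicate 3 was close to the highest resting NK array, and the resting NK and splenocyte values overlapped. IL-15 NK cells were 2.37-fold above splenocytes (log2 difference 1.24 ± 0.34 SE, n = 3 and 4 arrays, limma adjusted p = 0.018). This call ended when every gene was tested (limma adjusted p = 0.051) and without IL-15 NK replicate 1, where the adjusted p rounds to the threshold (log2 difference 1.20, limma adjusted p = 0.05).

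The geometric mean of Tnfsf10 in IL-15 NK cells was 1.89 times that of resting NK cells, just short of a call (log2 difference 0.92 ± 0.31 SE, n = 3 each, limma adjusted p = 0.053). This difference passed in 5 of 14 alternatives and stayed short of a call in the other 9. Leaving out single arrays gave log2 differences of 0.69 to 1.19 and limma adjusted p of 0.031 to 0.18. Among the passes were quantile normalization (log2 difference 0.97, limma adjusted p = 0.031) and a floor at the 50th percentile (limma adjusted p = 0.042). It also passed with no intensity trend (limma adjusted p = 0.046) and without IL-15 NK replicate 3, the lowest array of its group (log2 difference 1.19, limma adjusted p = 0.031). Resting NK cells and splenocytes differed by 0.32 ± 0.34 SE on the log2 scale (limma adjusted p = 0.50). Among the other probe sets, 1439680_at read 981.2 to 2079.6 in IL-15 NK, 738.3 to 1129.7 in resting NK and 469.1 to 605 in splenocytes, and it passed for IL-15 NK against splenocytes (2.92-fold, limma adjusted p = 0.0085 over all probe sets). The dimmest, 1420412_at, read 284.7 to 1164.3 on IL-15 NK arrays and 218.6 to 442.9 on resting NK arrays, and it was under the floor on all 4 splenocyte chips. It did not pass in any of the 3 comparisons (limma adjusted p = 0.078 to 0.42 over all probe sets). All 3 probe sets had the same order of group means.

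**Figure D2:**
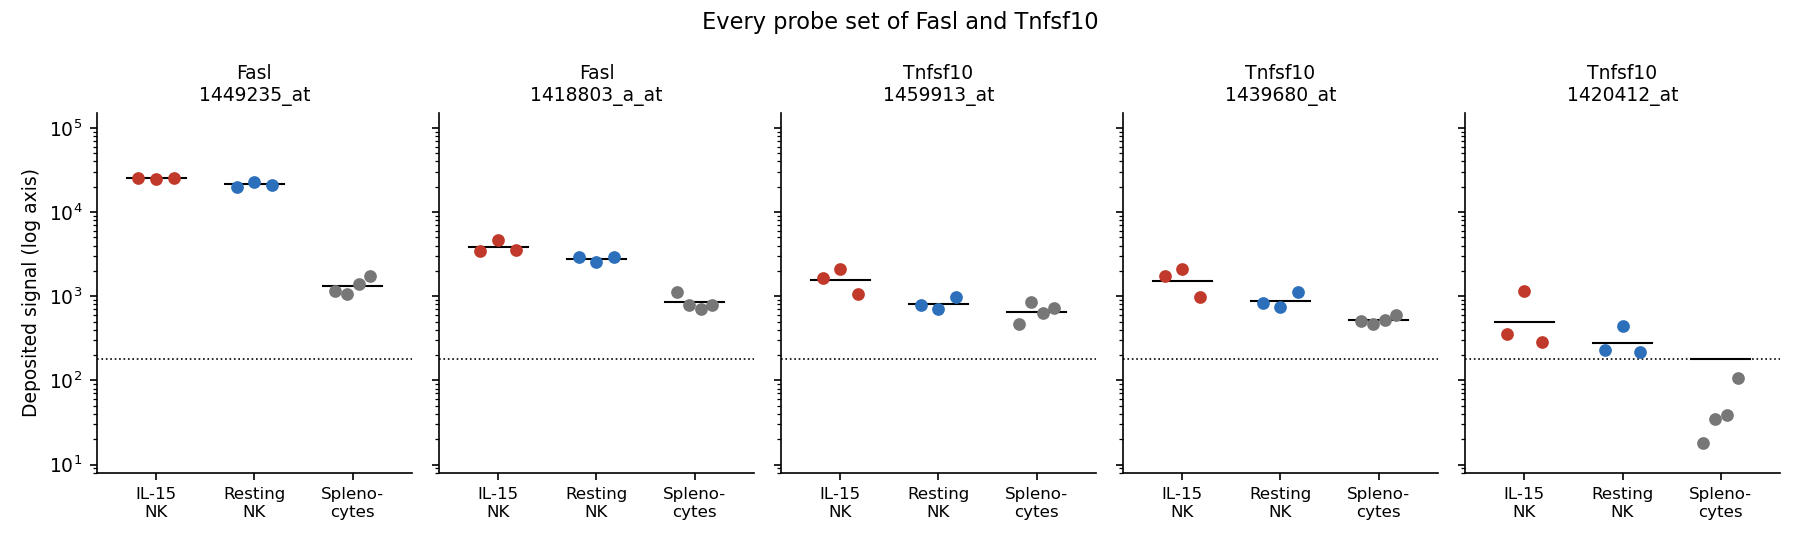
Deposited signal (log axis) of the 2 probe sets of Fasl and the 3 of Tnfsf10 on every array, drawn as points with geometric means as bars and the floor of 179.8 as a dotted line. The order of the group means is the same within each gene, while the distance to splenocytes is larger at 1449235_at than at 1418803_a_at.

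Lta, Tnf and Ltb lie next to each other on chromosome 17. In the RefSeq gene table of GRCm38.p6 no other protein-coding gene stands between them, and a microRNA gene, Mir6973a, is listed between Ltb and Tnf. Lta and Tnf are read from the minus strand and Ltb from the plus strand. The promoter windows of the 3 genes are shown because these neighbours did not move the same way. Each runs from 250 bases before to 50 bases after a RefSeq start site, is given 5′ to 3′ on the gene's own strand, and was taken from RefSeq on GRCm38.p6. The windows are chr17:35205302-35205601 for Lta, chr17:35201958-35202257 for Tnf and chr17:35194257-35194556 for Ltb. Capitals mark matches to the TATA box, forkhead-like and NF-kappaB-like letters described after them.
Lta: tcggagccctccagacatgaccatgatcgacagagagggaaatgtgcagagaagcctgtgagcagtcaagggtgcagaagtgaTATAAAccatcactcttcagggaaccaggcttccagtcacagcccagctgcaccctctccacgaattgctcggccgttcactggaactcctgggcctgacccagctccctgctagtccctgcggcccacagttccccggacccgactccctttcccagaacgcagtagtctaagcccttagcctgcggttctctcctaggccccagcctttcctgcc
Tnf: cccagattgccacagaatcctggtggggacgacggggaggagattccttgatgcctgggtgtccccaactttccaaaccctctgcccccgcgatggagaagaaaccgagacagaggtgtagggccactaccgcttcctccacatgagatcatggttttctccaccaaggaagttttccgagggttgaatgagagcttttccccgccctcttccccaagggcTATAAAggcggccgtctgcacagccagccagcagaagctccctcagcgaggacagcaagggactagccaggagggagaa
Ltb: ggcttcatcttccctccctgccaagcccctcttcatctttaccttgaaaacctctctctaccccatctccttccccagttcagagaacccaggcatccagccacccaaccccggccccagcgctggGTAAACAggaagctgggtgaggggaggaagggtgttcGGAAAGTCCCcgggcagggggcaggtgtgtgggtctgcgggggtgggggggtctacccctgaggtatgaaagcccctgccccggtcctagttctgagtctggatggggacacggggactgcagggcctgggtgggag

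Both strands of the windows of all 5 members were searched for 6 short motifs chosen with the results known. The TATA box letters TATAAA began at position -29 from the Tnf start site and at -167 from the Lta start, and 13.6% of all 32851 promoter windows of this length held them. Ltb had none within its window, and neither did Fasl or Tnfsf10. The Ltb window held the NF-kappaB-like letters (GGG, any 3 bases, then TTCC) on the reverse strand at position -87, which 5.56% of all windows held, and the forkhead-like letters GTAAACA at -124, which 3.65% held. The NFAT core GGAAA, which 61.3% of all windows held, occurred in each of the 5 windows and overlapped the NF-kappaB-like match in Ltb. The IRF-like letters (GAAA, any 2 bases, then GAAA) and the EGR-like letters GCGNGGGCG had no match in these 5 windows, against 3.44% and 5.55% of all windows. A match describes the letters only.

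Tnf rose in IL-15 NK cells, as far as the dim resting arrays allow a size. Its only probe set, 1419607_at, read 1213.7, 705.6 and 1040.7 in IL-15 NK cells. In resting NK cells it read 660.7, 67.5 and 286.5, so that replicate 2 was under the floor and replicate 1 came close to the lowest IL-15 NK array. The groups did not overlap. IL-15 NK cells were at least 2.97-fold above resting NK cells (log2 difference 1.57 ± 0.45 SE, n = 3 each, limma adjusted p = 0.027), against 14.2% of all tested genes called higher. The call was lost without IL-15 NK replicate 1 (limma adjusted p = 0.095), without IL-15 NK replicate 3 (log2 difference 1.51, adjusted p = 0.08), without resting NK replicate 2 (1.15, adjusted p = 0.057) and without resting NK replicate 3 (1.48, adjusted p = 0.061), all by limma. It was also lost with every gene tested (limma adjusted p = 0.21) and with a floor at the 20th percentile (log2 difference 2.04, limma adjusted p = 0.056).

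The splenocyte chips read 391.8, 625.8, 605.5 and 503.5 for Tnf, between the NK groups. IL-15 NK cells differed from splenocytes by 0.88 ± 0.51 SE (limma adjusted p = 0.20), with all IL-15 NK arrays above all splenocyte chips. Resting NK cells differed from them by -0.69 ± 0.51 SE (limma adjusted p = 0.33), with overlap. Without resting NK replicate 1, resting NK cells differed from splenocytes by -1.20 and passed (limma adjusted p = 0.041). The resting NK array with the lowest Tnf signal, replicate 2, had the highest Gapdh 3-prime to 5-prime ratio, 9.54, and the part of RNA quality in its value was not tested.

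Lta was above the floor on every IL-15 NK array and on no resting NK array. Probe set 1420353_at read 690.5, 317.7 and 284.5 in IL-15 NK cells, against 14.8, 27.8 and 43.6 in resting NK cells, all 3 under the floor. In splenocytes it read 1054.6, 1528, 1587.5 and 1605.1. The 3 groups did not overlap. The rise over resting NK cells was at least 2.21-fold (log2 difference 1.14 ± 0.35 SE, n = 3 each, limma adjusted p = 0.034). Because Lta entered this test only through its IL-15 NK arrays, its difference could only be positive. With a floor at the 20th percentile the bound rose to a log2 difference of 2.87 (limma adjusted p = 0.0026). The call was lost without resting NK replicate 1, 2 or 3 (limma adjusted p = 0.077, 0.056 and 0.072, each at a log2 difference of 1.14), and with every gene tested (limma adjusted p = 0.16). Without any of the IL-15 NK arrays, or with a floor at the 50th percentile, too few arrays were above the floor for a test.

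Against splenocytes, Lta was lower in both NK groups. IL-15 NK cells were 3.59-fold below splenocytes (log2 difference -1.84 ± 0.36 SE, limma adjusted p = 0.0041), and resting NK cells were at least 7.91-fold below them (log2 difference -2.98 ± 0.36 SE, limma adjusted p = 0.00043), with 3 NK arrays a group and 4 splenocyte chips. Since Lta was under the floor on all resting NK arrays, the difference between resting NK cells and splenocytes could only be negative. Of all tested genes, 23.5% were called lower in IL-15 NK cells than in splenocytes and 21.5% in resting NK cells than in splenocytes. On IL-15 NK arrays Lta stood at 47.8%, 22% and 19.7% of its splenocyte mean in replicates 1, 2 and 3. The same arrays had a median B-cell marker at 0.766%, 0.254% and 0.848% of its mean over splenocyte chips, and a median T-cell marker at 1.88%, 2% and 3.19%.

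Ltb moved the other way and fell in IL-15 NK cells. Probe set 1419135_at read 2654.5, 5331.7 and 2120.6 in IL-15 NK cells, against 10129.4, 14312 and 6537.7 in resting NK cells. The splenocyte chips read 52630.2, 55750.2, 48153.3 and 46995.7. Every group was separate from the others. IL-15 NK cells were 3.16-fold below resting NK cells (log2 difference -1.66 ± 0.36 SE, n = 3 each, limma adjusted p = 0.0078), against 12.1% of tested genes called lower. The call held when each NK array was left out in turn (limma adjusted p = 0.0028 to 0.034) and was lost with every gene tested (limma adjusted p = 0.12). IL-15 NK cells were 16.3-fold below splenocytes (log2 difference -4.03 ± 0.42 SE, limma adjusted p = 0.00017), and resting NK cells were 5.17-fold below them (log2 difference -2.37 ± 0.42 SE, limma adjusted p = 0.0028). Of the genes tested, 1.86% and 4.58% lay at least as far below splenocytes as Ltb did in IL-15 NK and in resting NK cells.

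B cells express Ltb strongly, and summed B-cell marker signal, like Ltb, was higher on every resting NK array than on every IL-15 NK array. Within resting NK cells the summed signal had the order of Ltb: 45169, 61932 and 12564.8 on replicates 1, 2 and 3. Within IL-15 NK cells it did not: 4981.2, 6758.5 and 6397.3. The median B-cell marker had the order of Ltb in neither NK group. On IL-15 NK arrays that median included markers under the floor, where signals were not ordered. The summed signal of the 11 B-cell markers was 4981.2 to 6758.5 on IL-15 NK arrays, 12564.8 to 61932 on resting NK arrays and 442324 to 552438 on splenocyte chips. Ighm alone read 3104 to 5561.2, 10024.5 to 34312.6 and 119432.3 to 146216.6 in the same order of groups. Of the 11 markers 3 to 6 were above the floor on IL-15 NK arrays, where Cd79a, Ms4a1, Cr2 and Blnk were under it on all 3 arrays, 6 to 11 on resting NK arrays and all 11 on splenocyte chips. On resting NK replicate 3, 5 markers were under the floor: Cd79a, Cd79b, Blk, Ms4a1 and Blnk. On that array Ltb stood at 12.8% of its splenocyte mean while the median B-cell marker stood at 0.509%. On replicates 1 and 2 Ltb stood at 19.9% and 28.1%, beside B-cell markers at 11.9% and 8.3%. IL-15 NK replicates 1, 2 and 3 held Ltb at 5.22%, 10.5% and 4.17%, beside B-cell markers at 0.766%, 0.254% and 0.848%. Ltb was thus higher on resting NK replicate 3 than on every IL-15 NK array. Taken alone, resting NK replicate 3 gave a log2 difference of -1.07 between the NK groups, 1 array standing for the group and assumed to vary like the others (limma adjusted p = 0.091). Of the T-cell markers, whose cells also express lymphotoxins, Cd4 was under the floor on all 6 NK arrays and Cd3e on all but 1 resting NK array. Others were not: Cd3g, Cd8a and Lef1 were above it on all 6 NK arrays, and Cd3d on all but 1 IL-15 NK array. Cd8a reached 4226 in resting NK cells, against 911.5 to 1340.3 on splenocyte chips. The list summed to 9579.9 to 10735.7 on IL-15 NK arrays, 18631.5 to 25118.4 on resting NK arrays and 88658.9 to 109326 on splenocyte chips, with Cd28 alone at 4661.8 to 6428.7, 7379 to 15329.4 and 8067.8 to 9872.7 in the same order of groups. Lef1 read 2522.3 to 3163.7, 4305.4 to 5990.5 and 7584.4 to 11560.5, so Cd28 and Lef1 carried much of the sum on NK arrays. Macrophage and monocyte markers summed to 1679.6 to 2031.6, 7495 to 29140.8 and 195979 to 227306 in the same groups. The highest resting NK sum, 29140.8, was that of replicate 3. The median of these markers stood at 3.74%, 9.7% and 6.8% of the splenocyte mean on resting NK replicates 1, 2 and 3. The part of T cells and macrophages in the values of Ltb and Tnf was not tested.

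**Figure D3:**
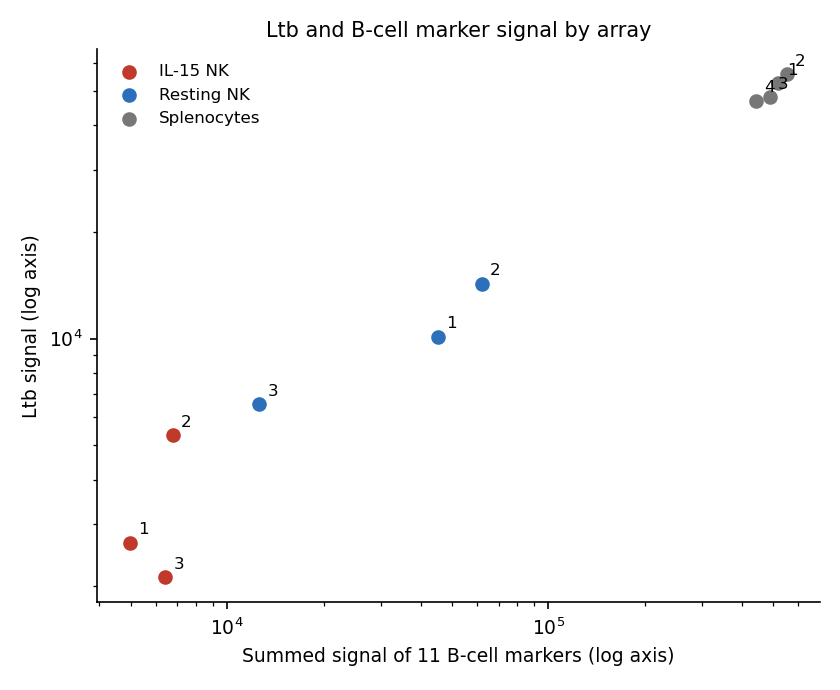
Ltb signal against the summed signal of 11 B-cell markers on the 10 arrays (both axes log), numbered by replicate. Ighm alone read 3104 to 5561.2 on IL-15 NK arrays and 10024.5 to 34312.6 on resting NK arrays, a large part of these sums. Resting NK replicate 3, with the least B-cell signal of its group, has less Ltb than replicates 1 and 2 and more than each IL-15 NK array.

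The 5 genes thus had different orders of groups. Fasl and Tnfsf10 decreased in the order IL-15 NK, resting NK, splenocytes. For Fasl both NK groups were called above splenocytes and the NK groups were not called different, and for Tnfsf10 only IL-15 NK cells and splenocytes, the ends of the order, differed past the threshold. Tnf decreased in the order IL-15 NK, splenocytes, resting NK, with only the NK groups called different. Lta decreased in the order splenocytes, IL-15 NK, resting NK and Ltb in the order splenocytes, resting NK, IL-15 NK, and in both genes all 3 pairs of groups were called. For Lta the direction of both pairs that hold resting NK cells was set by the floor and the filter, which leaves IL-15 NK against splenocytes as its only pair whose sign was free.

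**Figure D4:**
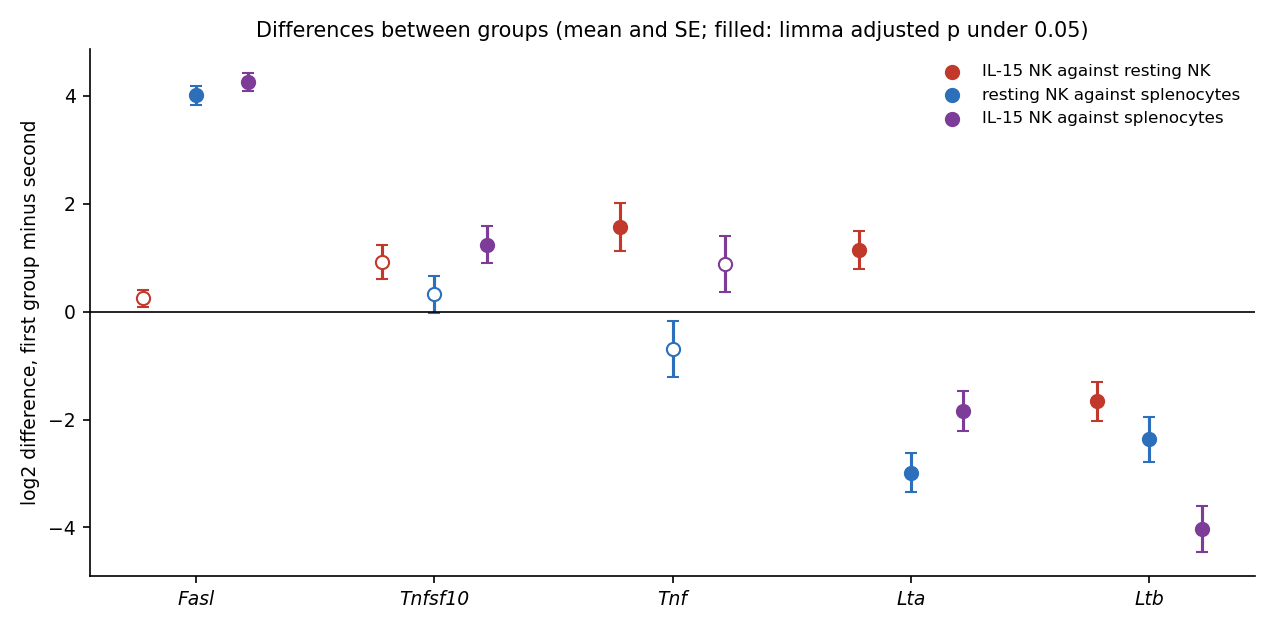
Log2 differences, the group named in front minus the other, with SE, for the 5 genes in 3 comparisons. Filled points passed limma at an adjusted p under 0.05. In IL-15 NK against resting NK, Tnf and Lta lie above 0 and Ltb below it, while Fasl and Tnfsf10 did not pass.

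The genes whose floored log2 signals over the 10 arrays were most like each member were found by Pearson correlation among 12547 genes. The 10 points share groups, replicate spread and array scaling, and the values are a description. For Fasl they were Ctla2b, Mmd and Sytl2 (each r = 0.996). For Tnfsf10 they were Mutyh (r = 0.956), Snhg7 and Aldh9a1 (each r = 0.929). For Tnf they were R3hdm4 (r = 0.964), Parp2 (r = 0.941) and Zdhhc24 (r = 0.94). For Lta they were Dusp4 (r = 0.977), Sema6d and Fntb (each r = 0.97), and for Ltb Phyh, H2-Oa (each r = 0.992) and Chchd5 (r = 0.991). In resting NK cells Dusp4 and Fntb, like Lta, had a mean log2 signal of 7.49, the floor, so these points were set by the floor. Between members, Fasl and Ltb had r = -0.914 and Lta and Ltb r = 0.679 over the same arrays.

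Of 13 other TNF family ligand genes, 9 were on the array and 6 were tested between the NK groups. Of these 2 rose, none fell and 4 did not pass, and the median log2 difference was 0.28 against -0.09 over all tested genes, of which 14.2% rose and 12.1% fell. Tnfsf9, the ligand of the costimulatory receptor 4-1BB, read 1015.3, 791.2 and 868.7 in IL-15 NK cells, against 196.5, 532.3 and 250.2 in resting NK cells. The groups did not overlap, and it rose 2.99-fold (limma adjusted p = 0.012). Tnfsf11, RANK ligand, read 739.8, 316.6 and 513.2 in IL-15 NK cells, against 186.6, 9.6 and 121.5 in resting NK cells, and it rose at least 2.71-fold (limma adjusted p = 0.0095). With a floor at the 50th percentile Tnfsf11 did not pass (limma adjusted p = 0.072). Tnfsf14, the gene of LIGHT, which binds the lymphotoxin beta receptor, was chosen for mention after its values were seen. It differed by -0.72 in IL-15 NK against resting NK cells (limma adjusted p = 0.057) and was higher than in splenocytes in both NK groups, 3.87-fold in IL-15 NK (limma adjusted p = 0.001) and 6.38-fold in resting NK cells (limma adjusted p = 0.00023). Without resting NK replicate 2, 1 of these ligand genes was called lower.

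Receptor genes for the 5 ligands were in part under the floor in NK cells. Of 9 on the array 4 were tested between the NK groups, beside 11433 of all 18193 genes. None of the 4 was called, and their median log2 difference was -0.27. Over all tested genes 14.2% were called higher and 12.1% lower, and 4 genes are too few to read a lack of calls. Without resting NK replicate 2, 1 receptor gene was called higher and 1 lower, beside 3241 calls over all tested genes. Tnfrsf1a and Tnfrsf1b, the receptors of TNF, differed by -0.12 (limma adjusted p = 0.71) and 0.60 (limma adjusted p = 0.078). Without IL-15 NK replicate 1 the difference of Tnfrsf1a changed sign, to 0.0059 (limma adjusted p = 0.99). Without resting NK replicate 2, Tnfrsf1b passed (log2 difference 0.79, limma adjusted p = 0.021). Fas, the receptor of Fas ligand, was also chosen after its values were seen. It read 20.4, 71 and 30.1 in IL-15 NK cells, 182.9, 26.7 and 197.1 in resting NK cells and 826.1 to 1476.3 in splenocytes. All 3 IL-15 NK arrays and resting NK replicate 2 were under the floor. Both NK groups were lower than splenocytes, IL-15 NK at least 6.28-fold (limma adjusted p = 1.5e-05) and resting NK at least 6.06-fold (limma adjusted p = 1.9e-05). As no IL-15 NK array was above the floor, the difference of IL-15 NK cells from splenocytes could only be negative.

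Downstream of the death receptors 18 genes were tested between the NK groups, of which 2 rose, 4 fell and 12 did not pass, with a median of 0.09. Over all tested genes 14.2% rose and 12.1% fell. The share of the list was under that of all genes for rises and over it for falls. A list of 18 genes is too small to read either. Mlkl, which executes necroptosis, read 1892.8, 2677.7 and 2008.4 in IL-15 NK cells, against 342.2, 480.2 and 301.9 in resting NK cells, a 5.9-fold rise (limma adjusted p = 0.00024). Tnfaip3, the gene of A20, which restrains NF-kappaB signalling, read 3933.8, 3062.3 and 3955.4 in IL-15 NK cells, against 36125.9, 35334.6 and 9862 in resting NK cells. It fell by 2.68 (log2 scale, limma adjusted p = 0.0014). The splenocyte chips read 6685 to 8500.7, below all 3 resting NK arrays. With resting NK replicate 3 alone the log2 difference was -1.44 (limma adjusted p = 0.0038). Bid, which links caspase 8 to mitochondria, rose by 0.89 (limma adjusted p = 0.049). It did not pass without IL-15 NK replicate 2 (limma adjusted p = 0.091), IL-15 NK replicate 3 (0.19), resting NK replicate 2 (0.11) or resting NK replicate 3 (0.058), all by limma. The count of genes called higher was 1 without IL-15 NK replicate 2, IL-15 NK replicate 3 or resting NK replicate 3, and the lost call was that of Bid.

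Of 6 genes tested for the lymphotoxin beta receptor and the alternative NF-kappaB pathway, none rose, 2 fell and 4 did not pass between the NK groups, with a median of -0.56, beside 14.2% higher and 12.1% lower over all tested genes. The genes that fell were Birc3 and Birc2, which encode the ubiquitin ligases cIAP2 and cIAP1 and also belong to the death receptor list. Birc3 read 6068.1, 6070.5 and 4617 in IL-15 NK cells, against 10720.8, 9359 and 10554.5 in resting NK cells, without overlap, and it fell by 0.88 (log2 scale, limma adjusted p = 0.0059). Birc2 fell by 0.74 (limma adjusted p = 0.017) and did not pass without resting NK replicate 1 (limma adjusted p = 0.074), IL-15 NK replicate 1 (0.056) or IL-15 NK replicate 3 (0.073), where the count of genes that fell was 1. In IL-15 NK cells against splenocytes 1 of the 6 genes was higher and 5 were lower, beside 20.8% higher and 23.5% lower over all tested genes, among them Birc3 at 5.2-fold lower (limma adjusted p = 1.7e-05).

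Among 12 tested genes that release or carry the ligands, 1 rose, 3 fell and 8 did not pass between the NK groups, with a median of -0.21. The share that rose was under the 14.2% of all tested genes, and the share that fell was over their 12.1%. A list of 12 genes is too small to read either. Adam17, the protease that sheds TNF, read 5308.3, 6181.7 and 6194.1 in IL-15 NK cells, against 11146.3, 8563.9 and 9956.1 in resting NK cells. The groups did not overlap, and it fell by 0.74 (log2 scale, limma adjusted p = 0.012). The call was lost without resting NK replicate 1 (limma adjusted p = 0.057) and without IL-15 NK replicate 1 (limma adjusted p = 0.053). Vamp3 and Stx11, which encode SNARE proteins of membrane fusion, fell by 0.68 (limma adjusted p = 0.012) and 0.78 (limma adjusted p = 0.021). The call of Vamp3 was lost without IL-15 NK replicate 3 (limma adjusted p = 0.069). That of Stx11 was lost without IL-15 NK replicate 1 (limma adjusted p = 0.064), IL-15 NK replicate 2 (0.073) or resting NK replicate 3 (0.067). Rhbdf2, whose product iRhom2 brings ADAM17 to the cell surface, read 239, 394.4 and 458.7 in IL-15 NK cells, against 149.1, 78.7 and 110.1 in resting NK cells, all under the floor. The rise was at least 1.95-fold (limma adjusted p = 0.035), and it had entered the test only through its IL-15 NK arrays. Its call was lost without each resting NK array (limma adjusted p = 0.061 to 0.085), and in no leave-out was a gene of this list called higher. Without IL-15 NK replicate 1, 1 gene was called lower.

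Of 11 tested regulators of mRNA stability, 1 rose, 4 fell and 6 did not pass between the NK groups, with a median of -0.34. Of all tested genes 14.2% rose, a larger share than in the list, and 12.1% fell, a smaller one. A list of 11 genes is too small to read either. Zfp36, the gene of tristetraprolin, which binds AU-rich elements and speeds decay of Tnf mRNA, read 1620.5, 2445.4 and 2120.8 in IL-15 NK cells, against 12178, 5418.9 and 4247.9 in resting NK cells. Every IL-15 NK array was below every resting NK array, and it fell by 1.69 (log2 scale, limma adjusted p = 0.0064). Its relatives Zfp36l2 and Zfp36l1 fell by 1.30 (limma adjusted p = 0.0015) and 1.23 (limma adjusted p = 0.0026). Elavl1, the gene of the stabilizing protein HuR, rose by 0.95 (limma adjusted p = 0.016), a call lost without IL-15 NK replicate 1 (limma adjusted p = 0.066), where no gene of the list was called higher.

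Of 20 tested transcription factors known to act on these ligand genes, 3 rose, 12 fell and 5 did not pass between the NK groups, with a median of -0.69, beside 14.2% of all tested genes that rose and 12.1% that fell. Egr3, an early growth response factor linked to Fasl transcription in T cells, read 4917.7, 6385.6 and 2701.3 in IL-15 NK cells, against 1150, 2193.3 and 1104 in resting NK cells, and it rose 3.12-fold without overlap (limma adjusted p = 0.008). On splenocyte chips, where Fasl was lowest, Egr3 read 6914.9 to 8840, above every NK array. A link between Egr3 and Fasl was not tested. Irf7, an interferon regulatory factor, fell by 1.72 (log2 scale, limma adjusted p = 0.0015). Fos and Jun, which form AP-1, fell by 5.12 (limma adjusted p = 1.5e-05) and 2.45 (limma adjusted p = 0.014). Jun read 655.4, 733.7 and 870.3 in IL-15 NK cells, against 8821.2, 6417.3 and 1204.4 in resting NK cells, so that resting NK replicate 3 lay far below its group. With that array alone for the group, the log2 difference of Jun was -0.69 (limma adjusted p = 0.22), short of the threshold.

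Of the listed genes named, Tnfsf9, Tnfsf11, Tnfaip3, Bid, Rhbdf2, Stx11, Zfp36, Elavl1, Jun and Egr3 lost their call with every gene tested (limma adjusted p = 0.064 to 0.22). Resting NK replicate 3 alone was a choice made after seeing the data, and it leaves 1 array in the group. With it, Tnfsf11 (log2 difference 1.46), Adam17 (-0.76) and Birc2 (-0.73) missed the limma threshold at about their full size. Rhbdf2 also missed the threshold, at 0.96. That size could not change, because all resting NK arrays were under the floor for Rhbdf2. Bid (0.72) and Elavl1 (0.59) missed the threshold at a smaller size. With no intensity trend Bid did not pass (limma adjusted p = 0.066).

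**Figure D5:**
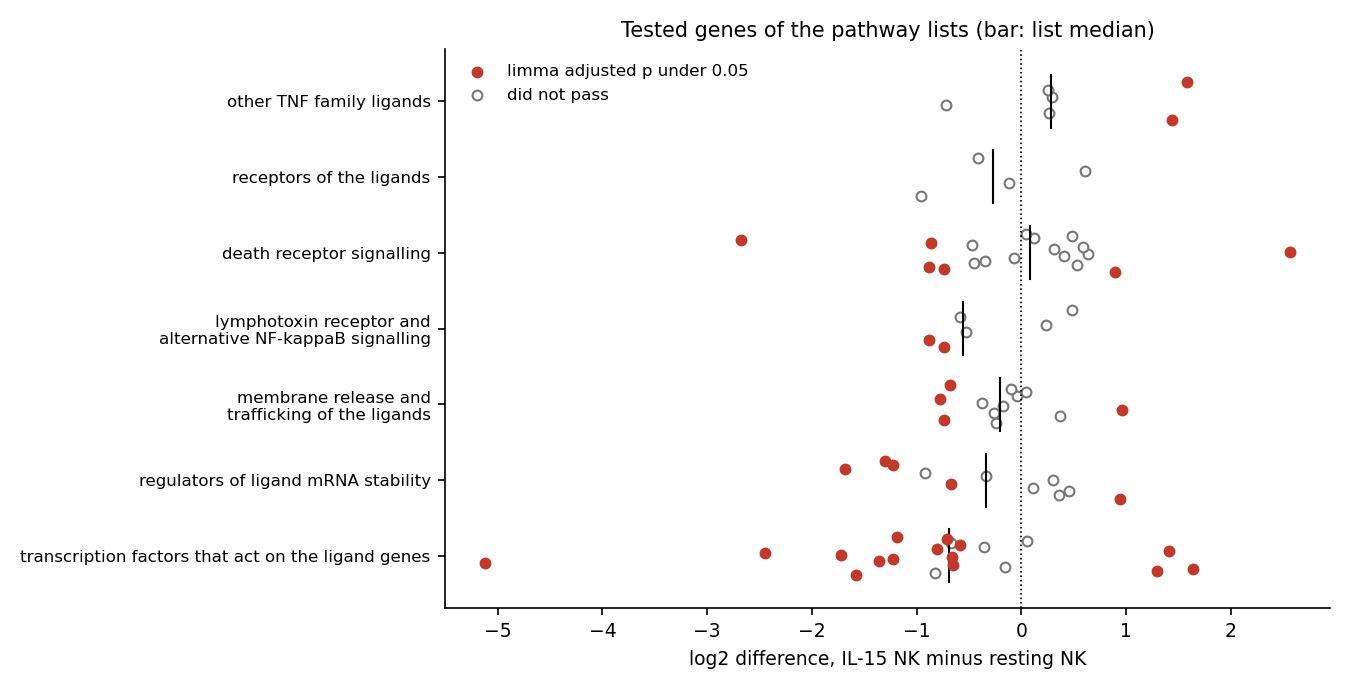
Log2 differences of IL-15 NK minus resting NK cells for the tested genes of 7 lists around the ligands. Each point is a gene, filled where limma passed at an adjusted p under 0.05, and the bars are list medians. The transcription factors hold 12 of the filled points below 0 and 3 above it.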

How the data were processed

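RNA from 3 IL-15 NK, 3 resting NK and 4 splenocyte arrays was analysed as deposited by the authors: linear signal intensity per probe set, for which the submitters' processing notes name GCOS 1.4. Neither the summary method nor the scaling target is stated there. The values have a trimmed mean (2% off each end) near 1500.01 on every array. Signals were floored, log2 was taken, and each gene was tested at its brightest probe set with limma 3.58.1 in R 4.3.3 (lmFit, eBayes with trend), two-sided, with Benjamini-Hochberg adjustment over all genes above the floor on at least 3 arrays. The NK groups were compared on their 6 arrays. For splenocytes all 10 arrays were fitted. Their 4 chips are 2 biological samples, and which chips share one is not stated, so they were averaged in pairs under all 3 pairings and the largest p was kept.

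Of the probe sets 34945 had 1 gene symbol, 932 several and 9160 none, and 64 were controls, which were left out. Symbols covered 18193 genes. Listed genes with no probe set of their own were not analysed here. Named genes are all members, up to 4 called genes with the largest difference in each list (the 2 brightest where fewer than 2 passed), and the 3 genes most like each member, leaving out predicted genes and clones. Members and lists were chosen with earlier results of these data known. The fit was tested on simulated data. Alternatives were other floors, no filter, quantile normalization, single probe sets, no trend, a replicate block, splenocyte chips as separate samples and leaving out each array. Resting NK replicate 3 alone was added after seeing the data.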

Additional observations from a re-analysis of the deposited data

Results flagged for a closer look

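Lta in splenocytes had 1 chip apart from the others: chip 1 read 1054.6, against 1528, 1587.5 and 1605.1 on the other chips. Its gap to the nearest chip, divided by the range of all 4, was 0.883, above Dixon's critical value for 4 independent samples. The chips are pairs from 2 biological samples and so are not independent, and the ratio is a description. All 8 probe sets of the members were checked in this group, and chance alone marks about 1 in 20 such groups. Chip 1 is still above every NK array.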

How the results depend on the processing

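Over all alternatives and the 3 comparisons, 196 differences of Fasl, Tnfsf10, Tnf and Ltb were recomputed, and all kept their direction. In part of them it could not change: no filter, no trend, the block, single probe sets and separate chips leave the difference itself as it was. Leaving out an array of a group not compared does so too. Of the 196, 180 kept their side of the threshold, 10 lost the call and 6 gained it. Lta was not counted, since the floor and the filter set its sign against resting NK cells. With every gene tested, 1646 genes were called between the NK groups, against 3003, and limma's adjusted p was 0.21 for Tnf (log2 difference 1.57), 0.16 for Lta (1.14) and 0.12 for Ltb (-1.66). Tnfsf10 in IL-15 NK against splenocytes then had 1.24 (limma adjusted p = 0.051). With a floor at the 20th percentile Tnf had 2.04 (limma adjusted p = 0.056). Tnfsf10 in IL-15 NK against resting NK passed at 0.92 with a floor at the 50th percentile (limma adjusted p = 0.042) or no trend (0.046), and at 0.97 after quantile normalization (0.031). With each probe set tested singly, 5004, 9129 and 9797 probe sets were called in IL-15 NK against resting NK, resting NK against splenocytes and IL-15 NK against splenocytes. With resting NK replicate 3 alone, Lta had 1.14 (limma adjusted p = 0.15) and Ltb -1.07 (0.091), and Tnfrsf1a changed sign, to 0.13 (0.8), as it did without IL-15 NK replicate 1, to 0.0059 (0.99; its lowest value on leaving out an array was -0.24). The cause was not tested.

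Leaving out each array in turn gave 1963 to 3241 calls in IL-15 NK against resting NK, the lowest without IL-15 NK replicate 3. The log2 differences ranged from 0.69 to 1.19 for Tnfsf10, 1.15 to 2.08 for Tnf and -2.05 to -1.39 for Ltb, and Lta had 1.14 in each leave-out that could be fitted, a value the floor holds constant. Against splenocytes, Tnf in resting NK cells ranged from -1.20 to -0.27 and Tnfsf10 in IL-15 NK cells from 1.02 to 1.51. Lta could not be tested without any IL-15 NK array or with a floor at the 50th percentile.

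With the replicate block, 3421 genes were called between the NK groups, and Tnfsf10 passed at 0.92 (limma adjusted p = 0.045), as did Tnfrsf1b at 0.60 (0.033). The design text speaks of pairs without saying what they share. Deviations from the group means correlated at 0.103, 0.281 and 0.0665 in pairs 1, 2 and 3, and at -0.222 to 0.154 between arrays of unlike number. IL-15 NK replicates 2 and 3 correlated best with the resting NK array of their own number. IL-15 NK replicate 1 did so with resting NK replicate 3 (0.154). These values do not settle whether the pairs share a source, and the main fit had no block. Signals near the floor limit what can be said of Lta and Tnf in resting NK cells.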
